A study of Mus musculus with 4 samples.

Results

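The genes described here encode amino acid transporters of the solute carrier (SLC) families Slc1, Slc3, Slc6, Slc7, Slc36, Slc38 and Slc43. They were chosen with earlier results of these data known, by a rule on names. It took every gene with a probe set of its own in the array annotation whose symbol begins with one of these family names. This gave 63 of the 18194 named genes on the array, each represented by its brightest probe set. Of the 63, 60 are members of the carrier families and 3 (Slc7a6os, Slc36a1os and Slc6a19os) are genes on the opposite strand that share the name of a neighbour.

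RNA was measured in 4 cultures of C2C12, a mouse myoblast line that can form muscle fibres in culture, with 1 Affymetrix array for each culture. All cultures carried a stably transduced pLKO.1 lentiviral vector and were kept in serum-rich medium with puromycin, and the labels call the cells myoblasts. In the 2 control cultures the vector expressed a control short hairpin RNA (shRNA), called scramble in one label and shLuc in another, and in the 2 knockdown cultures it expressed shSFMBT1, directed at the chromatin protein gene Sfmbt1. The series text describes separately grown cultures, and separate transductions are not stated, so the p-values measure the spread between cultures of 2 stable cell populations.

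Myoblasts take up essential amino acids through a small set of carriers that work together. System A carriers such as Slc38a2 use the sodium gradient to load the cell with small neutral amino acids such as glutamine, and exchangers built from the heavy chain Slc3a2 and a light chain such as Slc7a5 trade these for leucine and other large neutral amino acids, which in turn activate the growth kinase mTORC1. Arginine and lysine enter through cationic carriers, and muscle cells also concentrate taurine and creatine through Slc6a6 and Slc6a8. Several of these genes are known targets of the transcription factor ATF4, which acts when amino acids run short.

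The regulatory sequences known for these genes were read from RefSeq promoter windows of 300 bases (250 before and 50 after the start site, build GRCm38.p6), which matched 46 of the 63 members in 67 windows. The core of the amino acid response element bound by ATF4, searched as TGATGNAA on both strands, lay in 5 of the 67 windows (7.46%), against 3.97% of all 32851 windows. It was found for Slc7a11, Slc1a4, Slc6a21 and Slc7a7. The E-box CACGTG, to which MYC and MAX bind, lay in 9 windows (13.4%, against 7.15% of all), and the E-box CAGCTG, favoured by MyoD-family factors, in 13 (19.4%, against 16.3%). Both E-boxes read the same on either strand, and each of the 3 motifs was counted on its own. Windows of the same gene can overlap, so a match can be counted more than once. This was so for a response element match of Slc7a7 and a CAGCTG match of Slc7a9. A match describes letters in a window and is not a measured binding site. Stretches of these windows are printed 5′ to 3′ along the gene, with matches in capitals, for a pair of members with the response element and a pair with the MYC and MAX E-box, chosen because ATF4-dependent and MYC-dependent regulation is well known among carriers. No match in these overlaps another.
Slc7a11 (chr3:50443633-50443699, minus strand, 2 matches that begin at -66 and -47): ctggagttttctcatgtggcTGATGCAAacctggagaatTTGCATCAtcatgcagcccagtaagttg
Slc1a4 (chr11:20332690-20332737, minus strand, match at -4): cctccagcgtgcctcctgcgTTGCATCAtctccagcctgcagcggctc
Slc36a1 (chr11:55204289-55204362, plus strand, matches at -31 and -3): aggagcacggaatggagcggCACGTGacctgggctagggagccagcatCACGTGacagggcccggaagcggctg
Slc38a7 (chr8:95853500-95853545, minus strand, match at -34): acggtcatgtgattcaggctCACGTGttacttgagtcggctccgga

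The values are probe set signals in arbitrary units, and differences are knockdown minus control on the scale log2(signal + 16), which understates the change of dim genes. The limit of the background range was set on each array at the 95th percentile of its 27 bacterial spike-in controls, which lay between 42.9 and 69.3. Median signal ranged from 92.8 to 102.7, and the share of probe sets above background was 64.3% and 65.0% in the control, 56.2% in knockdown replicate 1 and 67.6% in knockdown replicate 2. In probe set 1422894, Sfmbt1 itself had signals of 241.7 and 277.9 in the control against 74.6 and 16 in the knockdown (-2.35, adjusted p = 0.0219 when every probe set was tested). The 16, on knockdown replicate 2, lay in the background range. The 3 other tested probe sets of Sfmbt1 were also lower and did not pass, at -1.11 (adjusted p = 0.0594), -0.54 (0.333) and -0.50 (0.339). The -0.54 belongs to 1429749, the brightest probe set of Sfmbt1 and so the one that the rule for members would take. It had 256.3 and 361.6 against 166.2 and 252.3. All 8 myoblast markers examined, Myod1 and Myf5 among them, were above background on all 4 arrays. Myogenin (Myog), a gene of muscle differentiation, had signals of 341.9 and 296.2 in the control against 1657 and 1833 in the knockdown. Of the markers of other cell types, those above background on all 4 arrays were 0 of 3 for endothelium, 2 of 4 for leukocytes (Cd68 and Adgre1), 2 of 3 for epithelium (Epcam and Krt8), 0 of 2 for adipocytes and 2 of 3 for neural and glial cells (Rbfox3 and Sox10). Of the same markers, Pecam1 (endothelium), Ptprc and Cd3e (leukocytes), Cdh1 (epithelium) and Adipoq (adipocytes) lay in the background range on every array. That held for 0 of the 3 neural and glial markers. Epcam had 579.8 and 312.2 in the control against 580.5 and 805.5 in the knockdown. The 3 epithelial markers summed to 540.5 to 918.3 in the control and 859.2 to 1095 in the knockdown. In the same order, the 3 endothelial markers summed to 114.8 to 120.2 and 114.7 to 162.7, and the 4 leukocyte markers to 344.4 to 363.1 and 243.2 to 346.1. The 3 neural and glial markers summed to 583.3 to 598.0 and 354.3 to 457.8, and the 2 adipocyte markers to 79.8 to 125.6 and 155.7 to 160.0. The part of these in any transporter value was not tested.

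None of the amino acid transporter genes passed the test in either direction when Sfmbt1 was knocked down. Of the 63 genes, 42 had enough signal to be tested; 0 were called higher and 0 lower in limma's test at an adjusted p under 0.05, where 1.44% of all 12866 tested genes were called higher and 1.61% lower. Those shares are 185 and 207 genes, and with the arrays centred on their medians 339 were higher and 218 lower, with 0 members among them. At an unadjusted p under 0.05, 5 of the 42 (11.9%) stood out, 2 higher and 3 lower, against 15.0% of all genes. The median difference was -0.01 log2 units over the 42 genes and 0.01 over all genes, with 20 positive and 22 negative. The smallest adjusted p was 0.126, for Slc6a21. The groups of arrays did not overlap in 21 of the 42 genes, or 50%, and in 44.5% of all tested genes, so this count lay near its background. In bulk RNA, fewer cells of a type and less RNA per cell cannot be told apart.

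How small the differences were can be read from their 95% intervals. In 17 of the 42 genes (40.5%, against 43.6% of all tested genes) the interval lay within 1.5-fold in both directions, and in 27 (64.3%, against 78.4%) within 2-fold. The 17 include the main uptake routes described above: Slc3a2, Slc7a5, Slc7a6, Slc7a1, Slc7a2, Slc38a1, Slc38a2, Slc1a4, Slc1a5, Slc6a6 and Slc6a8. The remaining ones are Slc7a4, Slc38a7, Slc38a10, Slc36a1, Slc6a2 and Slc6a17. These bounds hold for the brightest probe set of each gene. Other tested probe sets gave differences as large as 0.85 for Slc38a10, 0.81 for Slc6a17, 0.80 for Slc6a2, -0.78 for Slc7a4 and -0.64 for Slc38a2. They reached 0.58 for Slc1a4, 0.46 for Slc7a1 and -0.43 for Slc6a6. Over the 42 genes, the median absolute log2 difference was 0.228 between the control arrays and 0.231 between the knockdown arrays, and 0.220 to 0.243 between arrays of different groups. Over all tested genes the same measure was 0.178 for the control pair, 0.208 for the knockdown pair and 0.224 to 0.259 across groups.

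**Figure D1:**
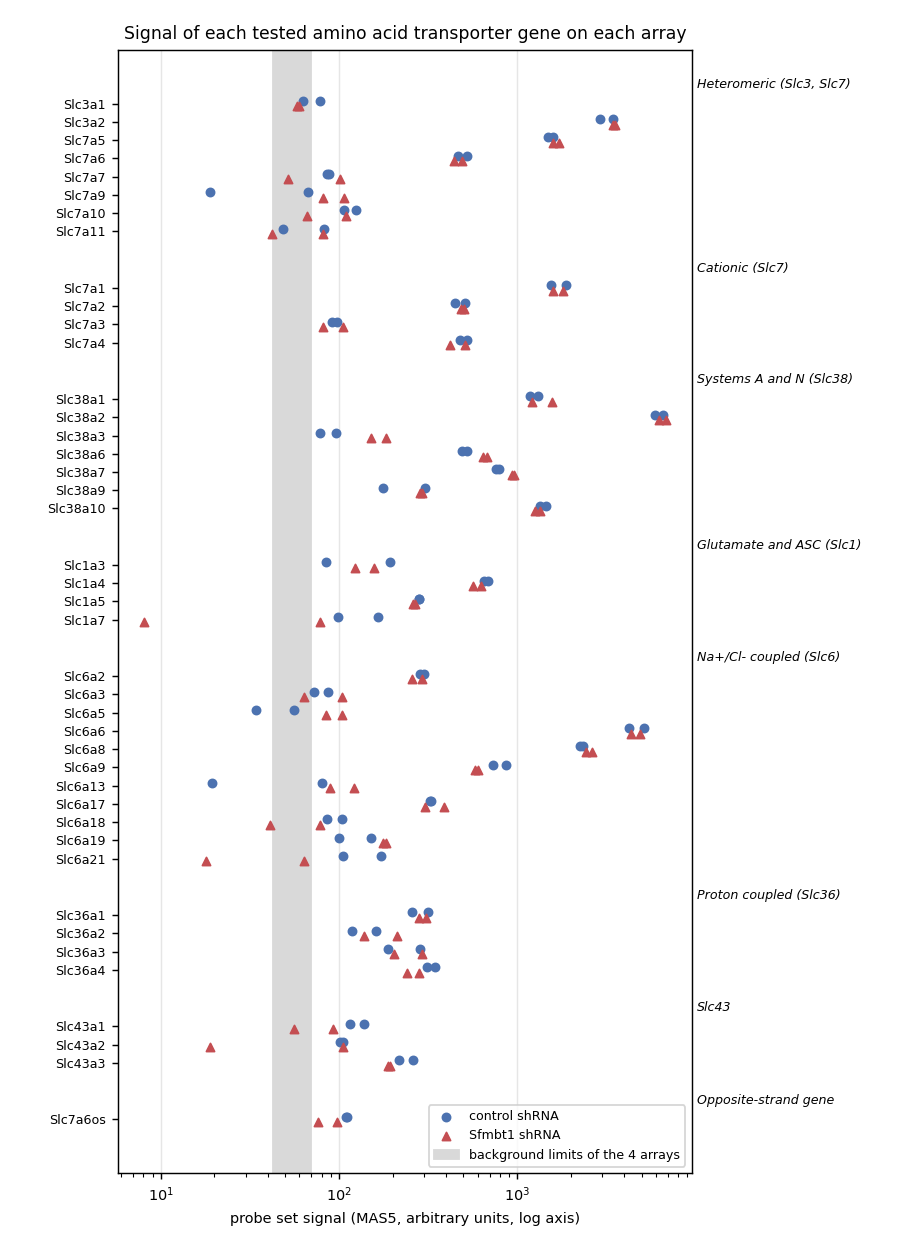
Signal (arbitrary units, log axis) of the 42 tested transporter genes, in rows grouped by role; circles are the 2 control arrays, triangles the 2 knockdown arrays, and the grey band spans the background limits of the 4 arrays, 42.9 to 69.3. For most genes circles and triangles interleave or lie close together, as for Slc38a2 (5926 and 6607 in the control, 6264 and 6805 in the knockdown), and the widest gaps belong to genes with a signal in or near the band.

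The heteromeric carriers, in which an SLC7 light chain is tied to an SLC3 heavy chain, had 8 of 12 genes tested and 0 called; 3 differences were positive and 5 negative, with a median of -0.08. The heavy chain gene Slc3a2 (CD98, probe set 1425364), partner of most light chains, had signals of 2928 and 3444 in the control against 3466 and 3523 in the knockdown. The knockdown arrays lay just above the control arrays, with no overlap, and the difference was 0.14 (95% interval -0.13 to 0.40, adjusted p = 0.680). Slc7a5 (LAT1), its light chain for leucine and other large neutral amino acids, had 1482 and 1597 in the control against 1715 and 1591 in the knockdown, so the groups overlapped (0.10, -0.18 to 0.38, adjusted p = 0.795). Slc7a6, a light chain that exchanges cationic for neutral amino acids, had 523.5 and 464.8 against 439.7 and 493.0 (-0.08, -0.44 to 0.28). Slc7a11 (xCT), which imports cystine in exchange for glutamate, was dim: its signals of 82.9 and 48.4 in the control against 42.3 and 81.1 in the knockdown put 1 array of each group in the background range. Its difference was -0.09, with an interval of -1.16 to 0.99. Its printed promoter window carries the response element core at 2 places, as does 1 window of Slc7a7.

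Among the remaining light chains, Slc7a9, the partner of the heavy chain Slc3a1 in cystine uptake, had 67.3 and 18.9 in the control against 81.7 and 106.2 in the knockdown (1.02, SE 0.53, adjusted p = 0.396). One control array lay in the background range, and with the background limit in its place the knockdown was 1.44-fold higher. Without that array, control replicate 2, the difference was 0.39, and without control replicate 1 it was 1.65. Slc3a1 (rBAT) itself differed by -0.20 (adjusted p = 0.901). Slc7a10 (Asc-1, for small neutral amino acids) and Slc7a7 differed by -0.37 and -0.21, each with 1 knockdown array in the background range. Slc7a8 (LAT2), the other leucine light chain, was in the background range on all 4 arrays with signals of 3.8 to 29.2 and was not tested.

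The cationic carrier group includes carriers that bring in arginine and lysine, and 4 of its 5 genes were tested. In their brightest probe sets the differences lay near 0, from -0.12 to 0.05, and 0 were called. Slc7a1 (CAT-1), the widely expressed arginine carrier, had 1887 and 1550 in the control against 1596 and 1820 in the knockdown; the knockdown arrays lay between the control arrays (-0.01, 95% interval -0.31 to 0.30, adjusted p = 0.992). In another probe set of Slc7a1, 1454991, the groups did not overlap, with 1179 and 1277 against 1499 and 1914 (0.46, SE 0.15, adjusted p = 0.147 over every probe set). The probe sets of Slc7a1 thus gave different values and none passed. Slc7a2 (CAT-2), the carrier that feeds inducible arginine use, had 449.4 and 508.0 against 484.8 and 503.6 (0.05, -0.31 to 0.40). Slc7a3 and Slc7a4 differed by -0.02 and -0.12. In another, dimmer probe set of Slc7a4, 1426069, signals were 71.5 and 133.8 in the control against 53.4 and 47.8 in the knockdown. The groups did not overlap there (-0.78, adjusted p = 0.429 over every probe set).

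The Slc38 family, sodium-coupled carriers of glutamine and other small neutral amino acids (systems A and N), had the most positive median of the families, 0.27 over 7 tested genes of 9, with 6 positive differences and 0 calls. Of these 6, only Slc38a6 and Slc38a7 kept their sign under every alternative processing. Slc38a2 was negative with quantile normalization (-0.0029) and with the mean of probe sets (-0.17), as was Slc38a3 with that mean (-0.11). Slc38a1 and Slc38a9 reached -0.035 and -0.059 with 1 array left out. Slc38a2 (SNAT2), the starvation-inducible system A carrier, differed by 0.06 (95% interval -0.19 to 0.31, adjusted p = 0.871), and the groups overlapped. Slc38a1 (SNAT1) had 1182 and 1303 in the control against 1212 and 1567 in the knockdown (0.15, -0.17 to 0.47). Slc38a3 (SNAT3), a system N glutamine carrier, had 96.3 and 78.7 in the control against 151.1 and 183.7 in the knockdown, with no overlap. That is 1.77-fold on this scale (0.82, SE 0.32, adjusted p = 0.213), but a second, likewise dim probe set of Slc38a3 had 105.0 and 97.1 against 20.4 and 71.7 (-1.05, adjusted p = 0.347).

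The next members also had positive differences and did not pass. Slc38a7 (SNAT7), which exports glutamine from lysosomes, had 792.3 and 765.7 in the control against 935.9 and 954.7 in the knockdown. The arrays agreed closely within each group and the groups did not overlap, yet the difference was 0.27 (-0.03 to 0.58, adjusted p = 0.401). Slc38a6, a less studied member, had 523.3 and 487.6 against 640.0 and 680.9 (0.38, 0.04 to 0.71, adjusted p = 0.274). Slc38a9, the lysosomal arginine sensor upstream of mTORC1, had 176.7 and 302.4 against 292.5 and 286.9, with its low value on control replicate 1 alone. It differed by 0.30 (-0.21 to 0.82), and by -0.06 without that array. Slc38a10 differed by -0.11, and Slc38a4 and Slc38a5 were in the background range on all 4 arrays.

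**Figure D2:**
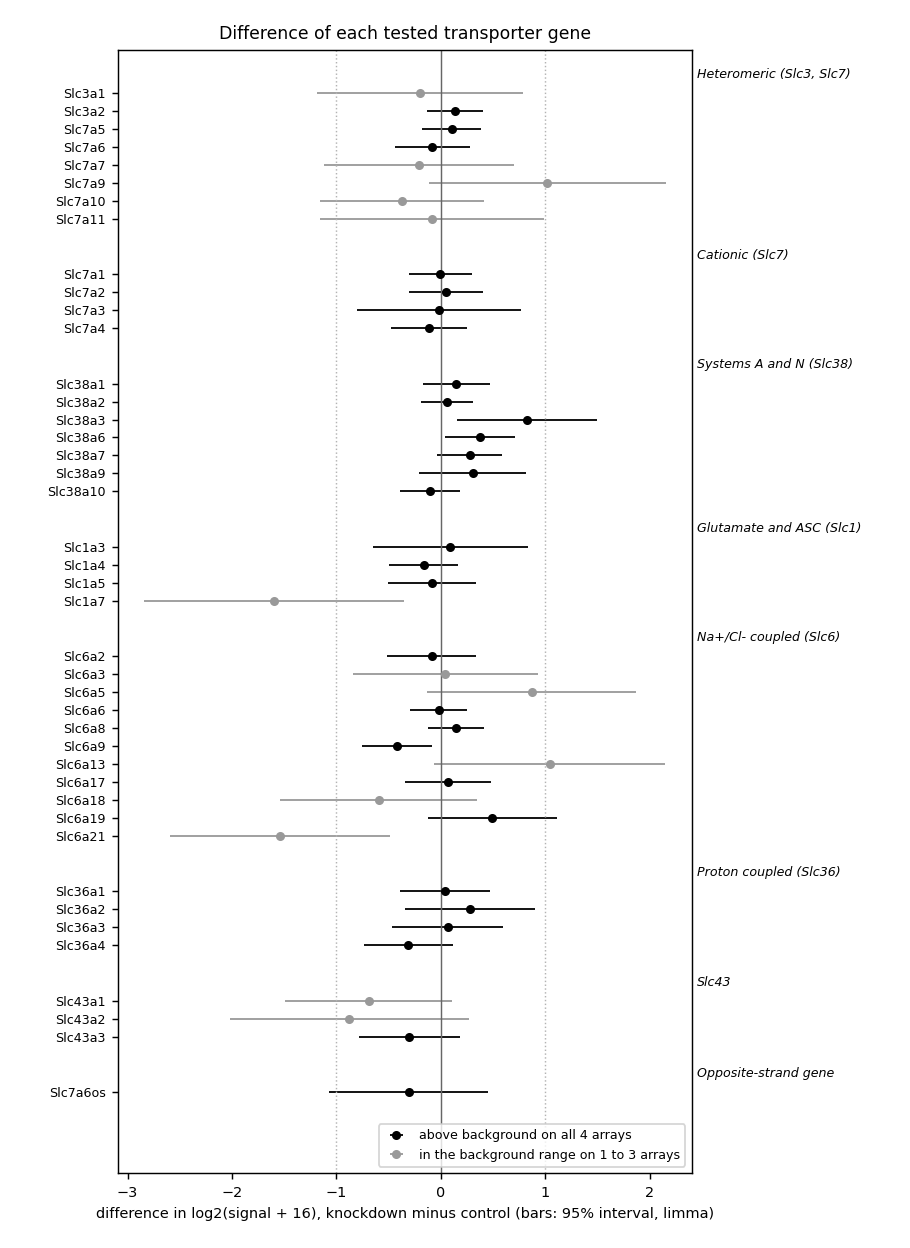
Difference in log2(signal + 16), knockdown minus control, of the 42 tested transporter genes with 95% intervals from limma; dotted lines mark 2-fold. Black genes were above background on all 4 arrays (29 genes) and grey ones in the background range on 1 to 3 arrays (13 genes), which have the widest intervals, such as -2.84 to -0.36 for Slc1a7.

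The Slc1 family holds the high-affinity glutamate carriers and the neutral exchangers ASCT1 and ASCT2; 4 of its 7 genes were tested and 0 called. Slc1a5 (ASCT2), the glutamine exchanger, had 280.8 and 282.7 in the control against 268.8 and 260.6 in the knockdown, a small shift without overlap (-0.09, 95% interval -0.51 to 0.34, adjusted p = 0.901). Slc1a4 (ASCT1), whose window carries the response element core, had 653.0 and 686.3 against 624.5 and 568.2 (-0.16, -0.50 to 0.17, adjusted p = 0.697). Its other probe sets pointed the opposite way, at 0.21 and 0.58 (adjusted p = 0.583 and 0.146), so the sign of Slc1a4 depends on the probe set. The glial-type glutamate carrier Slc1a3 (GLAST) had 85.2 and 194.4 against 122.9 and 157.8 (0.09, -0.65 to 0.83). Of its 4 other tested probe sets, 1439072 gave -0.34 with overlapping groups. The others gave 0.61, 0.67 and 1.56 without overlap, and none passed. The largest, in 1452031, came from 17.5 and 67.2 in the control against 127 and 154.6 in the knockdown (adjusted p = 0.129 over every probe set).

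Slc1a7, a glutamate carrier best known from the retina, had signals of 166.6 and 98.3 in the control against 78.5 and 8.1 in the knockdown, so the groups did not overlap, but knockdown replicate 2 was in the background range. The difference was -1.60 (SE 0.58, adjusted p = 0.189), and with the background limit in place of that array the control was 1.94-fold higher. Slc6a21 is a member of the neurotransmitter carrier family. Both of its knockdown arrays (63.6 and 17.9) were in the background range, against 105.0 and 172.1 in the control. With the background limits in place of both knockdown arrays the control was 2.13-fold higher, which is not a bound on the decrease. The fitted difference was -1.54 (SE 0.50, adjusted p = 0.126), with an interval of -2.59 to -0.49. Without knockdown replicate 1 the differences were -2.58 for Slc1a7 and -2.15 for Slc6a21. In that comparison the knockdown rests on replicate 2 alone, whose signals for both genes lie in the background range. Without knockdown replicate 2 they were -0.61 for Slc1a7 and -0.92 for Slc6a21.

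In the Slc6 family of sodium- and chloride-coupled carriers, 11 of 20 genes were tested and 0 called. Slc6a6, the taurine carrier, had 5142 and 4243 in the control against 4332 and 4879 in the knockdown, with the knockdown arrays between the control arrays (-0.02, 95% interval -0.30 to 0.25). Its 3 other tested probe sets did not overlap between groups and gave -0.26, -0.37 and -0.43; the lowest adjusted p of these was 0.180. Slc6a8, the creatine carrier, had 2253 and 2344 against 2449 and 2641 (0.15, -0.12 to 0.41, adjusted p = 0.654), and -0.08 in its other probe set.

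Slc6a9 (GlyT1), the glycine carrier, was the member above background on all 4 arrays with the smallest p. It had 731.4 and 866.3 in the control against 579.7 and 600.6 in the knockdown, 0.746 of the control on this scale (-0.42, SE 0.16, adjusted p = 0.199). A second probe set gave 399.1 and 465.8 against 357.6 and 284.8, also without overlap and again -0.42 (adjusted p = 0.320). The 2 probe sets gave like values and neither passed. Slc6a5 (GlyT2), the other glycine carrier, had 34.1 and 56.2 against 104.2 and 84.3, with 1 control array in the background range (0.87, adjusted p = 0.419).

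Slc6a13, a carrier of GABA and taurine, had 19.4 and 80.9 in the control against 122.3 and 89.0 in the knockdown (1.04, SE 0.52, adjusted p = 0.371). Control replicate 1 was in the background range, and with its limit in place the knockdown was 1.52-fold higher. Without that array the difference was 0.31, and without control replicate 2 it was 1.77. The kidney and gut carriers Slc6a18 and Slc6a19 differed by -0.60 and 0.49, the catecholamine carriers Slc6a2 and Slc6a3 by -0.09 and 0.04, and Slc6a17 by 0.07. The 9 untested genes of the family include the serotonin carrier gene Slc6a4, with signals of 6.6 to 9.2.

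All 4 proton-coupled Slc36 genes were tested and 0 called. Slc36a1 (PAT1), which exports small amino acids from lysosomes and has 2 E-boxes in its window, had 315.6 and 257.4 in the control against 309.6 and 279.7 in the knockdown (0.04, 95% interval -0.39 to 0.47). Slc36a4 had 346.3 and 311.5 against 242.4 and 281.8, without overlap (-0.31, -0.74 to 0.11, adjusted p = 0.507), and Slc36a2 and Slc36a3 differed by 0.28 and 0.07. In the Slc43 family all 3 genes had negative differences and 0 were called. Slc43a1 (LAT3) and Slc43a2 (LAT4), sodium-independent carriers of large neutral amino acids, had -0.69 (adjusted p = 0.420) and -0.88 (adjusted p = 0.485). For Slc43a2 this rests on 1 array: signals were 106.0 and 100.8 in the control against 105.4 and 18.8 in the knockdown, and without knockdown replicate 2 the difference was 0.02. Slc43a3, a nucleobase carrier despite its family name, had 217.9 and 261.3 against 188.0 and 193.2 (-0.30, adjusted p = 0.597). The opposite-strand gene Slc7a6os differed by -0.31 (adjusted p = 0.764).

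The 21 members that were not tested had signals between 1.6 and 138.3. Of these, 13 lay in the background range on all 4 arrays, among them Slc7a13, Slc7a15, Slc6a7, Slc6a12, Slc6a15 and the closely related copies Slc6a20a and Slc6a20b, whose probes may share signal. The other 8, Slc1a1, Slc1a2, Slc7a12, Slc7a14, Slc6a11, Slc6a14, Slc36a1os and Slc6a19os, were above background on some arrays, and 0 of them on all 4. Slc1a1, the neuronal and epithelial glutamate carrier, had 13.1 and 81.8 in the control against 138.3 and 43.6 in the knockdown, so the groups overlapped.

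Most members are read by more than 1 probe set, and these were tested together with every other probe set of the array, of which 2.39% were called. Of 125 probe sets of the 63 members 77 were tested and 0 called. Beside the probe sets used for the genes there were 35 tested ones, in 20 genes, and 7 of the 35 had an unadjusted p under 0.05, where 15.5% of all tested probe sets did. The lowest adjusted p among them was 0.0645, in probe set 1429979 of Slc38a10, a broadly expressed member of the glutamine carrier family. That probe set had 922.3 and 930.1 in the control against 598.7 and 636.5 in the knockdown (-0.57, SE 0.14), while the other tested probe sets of Slc38a10 gave -0.13 to 0.85.

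**Figure D3:**
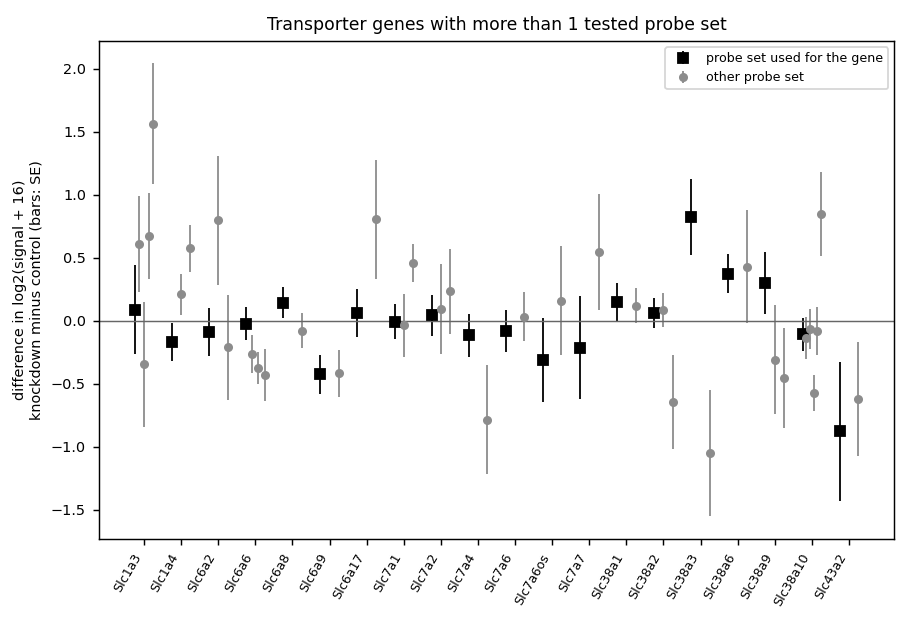
Difference in log2(signal + 16), knockdown minus control, with its SE for each tested probe set of the 20 transporter genes that have more than 1; squares are the probe sets used for the genes and circles the others. Probe sets of Slc6a9 give like values (both -0.42), whereas those of Slc1a4 run from -0.16 to 0.58 and those of Slc38a3 from -1.05 to 0.82.

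Genes around the transporters, in 6 lists of which 139 genes were tested, gave 3 calls: 2 higher and 1 lower. Of all 12866 tested genes, 1.44% were called higher and 1.61% lower. Among 17 other amino acid carriers, mostly mitochondrial or vesicular, 0 were called. Slc25a44, the mitochondrial carrier of branched-chain amino acids, had 581.7 and 617.6 in the control against 401.1 and 439.2 in the knockdown (-0.50, adjusted p = 0.141), and the mitochondrial serine carrier gene Sfxn1 differed by 0.30 (adjusted p = 0.329). Among 29 genes of the amino acid response and of ATF4 targets 0 were called, with 11 positive and 18 negative and a median of -0.08. The repressor gene Jdp2 (0.52, adjusted p = 0.0687) and the stress factor gene Atf3 (0.83, adjusted p = 0.111) had the smallest p. Next came Chac1, with a negative difference (-0.45, adjusted p = 0.113). Atf4 itself had 11219 and 11250 in the control against 10057 and 8993 in the knockdown, without overlap (-0.24, adjusted p = 0.330). Among 24 enzymes of amino acid and glutathione metabolism 0 were called, the smallest p being those of Dbt (0.86, adjusted p = 0.0904) and Bckdk (-0.38, adjusted p = 0.229), a subunit and the kinase of the branched-chain keto acid dehydrogenase.

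Of 36 genes of amino acid sensing by mTORC1 1 rose and 0 fell. Deptor, which encodes an inhibitory partner of mTOR, had 991.6 and 1190 in the control against 1595 and 1599 in the knockdown (0.55, SE 0.14, adjusted p = 0.0458), and its 4 other tested probe sets gave 0.50 to 0.68. Of these, 1428622 (0.67, adjusted p = 0.0316) and 1451348 (0.67, adjusted p = 0.0417) passed in the test of every probe set. The call of Deptor was lost without control replicate 1 (0.42, adjusted p = 0.394) and when every probe set was tested (adjusted p = 0.0664), without shared probe sets (0.0559), with the mean of probe sets (0.126), with no filter (0.146) or with no variance trend (0.342). The arginine sensor gene Castor1 differed by 0.66 (adjusted p = 0.196).

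Of 23 genes of the aminoacyl-tRNA synthetases and their scaffold 1 rose and 0 fell, and 17 had positive differences. That was Eef1e1, a scaffold protein of the multi-synthetase complex, with 1399 and 1251 against 1894 and 2318 (0.66, SE 0.14, adjusted p = 0.0185). Its call was lost when control replicate 2 was left out (0.58, adjusted p = 0.0872), with the mean of probe sets (0.0763), with no filter (0.120) or with no variance trend (0.311). The cysteine enzyme gene Cars differed by -0.51 (adjusted p = 0.0526). In a list of 11 tested regulators of transporters, which also holds the transcription factor genes Myc, Mycn and Max, 0 rose and 1 fell. This was Max, the partner through which MYC binds the CACGTG E-box, with 688.0 and 743.5 in the control against 330.0 and 388.7 in the knockdown (-0.97, SE 0.17, adjusted p = 0.00462). The call of Max was lost with no filter (0.0708) and with no variance trend (0.209). The 5 tested members with that E-box in a promoter window did not pass. Their differences were -1.60 for Slc1a7, -0.69 for Slc43a1, 0.04 for Slc36a1, 0.04 for Slc6a3 and 0.27 for Slc38a7. Slc1a7, Slc43a1 and Slc6a3 each had 1 knockdown array in the background range. Any link between Max and these members was not tested. Nedd4l, a ubiquitin ligase that acts on membrane carriers, differed by -0.63 (adjusted p = 0.0719).

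**Figure D4:**
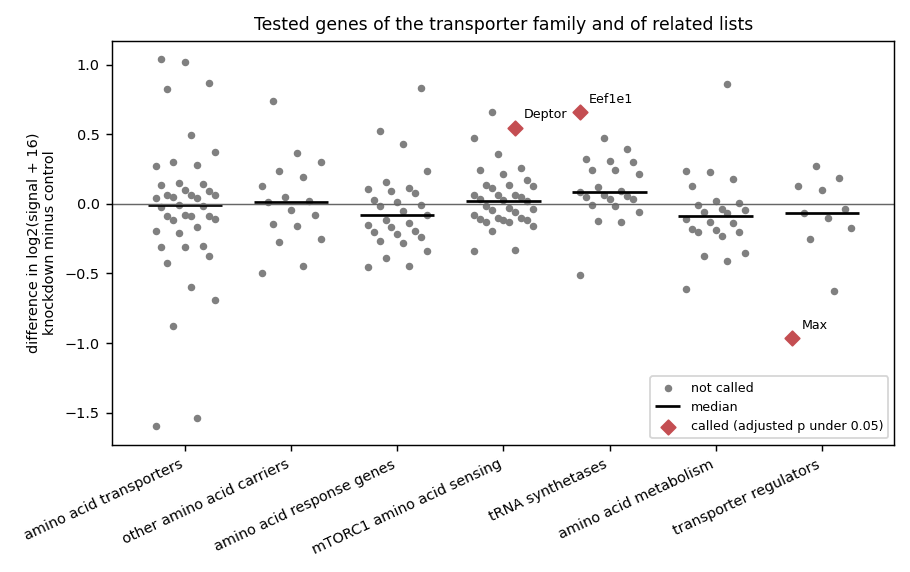
Difference in log2(signal + 16), knockdown minus control, of each tested transporter gene and of each tested gene of 6 related lists; points are genes, black lines medians, and diamonds genes called at an adjusted p under 0.05. The transporters hold 0 called genes and a median of -0.01, and the 3 called genes of the other lists are Deptor and Eef1e1 above 0 and Max below it.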

How the data were processed

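The authors deposited 1 table of linear probe set intensity values for 4 arrays. GCOS and the MAS5 algorithm are named in the submitters' processing notes. Versions and scaling between arrays are not given in the sources used here, and the values were used as deposited. Of 45101 probe sets, 34945 were assigned to 1 gene by the platform annotation, 932 to several and 9160 to none there; 64 were controls. Names were checked by gene identifier against RefSeq (GRCm38.p6), where 34741 matched.

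Intensity was transformed as log2(signal + 16). Each gene was taken at its brightest probe set, and genes in the upper 60% of probe set signal (57.3 or more) were tested with limma 3.58.1 (lmFit, eBayes with a variance trend) in R 4.3.3 with Benjamini-Hochberg adjustment over all 12866 genes. The prior added 13.8 degrees of freedom to 2. An exact permutation test of 2 against 2 cannot give a p under 0.333. The steps were tested on simulated data.

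The members and gene lists were chosen with earlier results of these data known. Named are members with a call (0), the 20 tested members with the smallest p and a set of well-known carriers, and in each list its called genes and the 2 with the smallest p; others were named after their values were seen. Same-numbered arrays did not deviate together (r = 0.01 across genes, which are not independent replicates), so the numbers were not taken as pairs. The alternatives were another pseudocount, filter, scaling, variance model, probe set choice, replicate block and leaving out each array. The number of arrays limits the precision.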

Additional observations from a re-analysis of the deposited data

How the results depend on the processing

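Under all 15 alternatives 0 transporter genes were called higher. In each, 0 were called lower, except 2 without knockdown replicate 1 (Slc1a7, -2.58, and Slc6a21, -2.15), so leaving out 1 array gave 0 to 2. The median difference of the members stayed between -0.07 and 0.05. With the replicate number as a block (replicate block) 0 members were called, 6 (14.3%) had an unadjusted p under 0.05 against 20.0% of all genes, and 4 related genes were called higher and 2 lower. Over all genes, calls higher and lower, 185 and 207 as reported, were 23 and 32 with no filter, 46 and 62 with the mean of probe sets, 0 and 0 with no variance trend (1501 genes at an unadjusted p under 0.05 in limma), 407 and 264 without knockdown replicate 1, and 167 and 450 without knockdown replicate 2.

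Related genes called higher and lower, 2 and 1 as reported, were 0 and 0 with no filter and with no variance trend, 5 and 3 with the upper 40% filter, 4 and 3 with quantile normalization, and 1 and 2 without shared probe sets. Higher calls alone moved to 5 with median centring, 1 with every probe set and 0 with the mean of probe sets, and lower calls alone to 2 with a pseudocount of 64. Calls higher and lower were 3 and 3 without control replicate 1 and without knockdown replicate 2, 4 and 1 without control replicate 2, and 6 and 2 without knockdown replicate 1.

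Of the 31 named members tested, 14 changed sign under some alternative and 17 under none. The values of opposite sign were 0.019 for Slc6a6 and 0.037 for Slc7a1 with median centring, and -0.0029 for Slc38a2 with quantile normalization. With the mean of probe sets they were 0.21 for Slc1a4, 0.084 for Slc1a5, -0.17 for Slc38a2, -0.11 for Slc38a3 and 0.14 for Slc7a1. Leaving out 1 array gave -0.44 to 0.62 for Slc1a3, -0.096 to 0.18 for Slc36a1, -0.035 to 0.33 for Slc38a1, -0.017 to 0.14 for Slc38a2, -0.059 to 0.67 for Slc38a9 and -1.78 to 0.024 for Slc43a2. It gave -0.16 to 0.12 for Slc6a6, -0.15 to 0.14 for Slc7a1, -0.45 to 0.28 for Slc7a11, -0.039 to 0.13 for Slc7a2 and -0.16 to 0.0024 for Slc7a6. The cause of these shifts was not tested. With 1 array left out, the lone array of its group is assumed to vary like the other group. Signal near background limits the 13 tested members that were not above it on all 4 arrays, whose median SE was 0.47, against 0.17 for the other 29.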
